A study of Rattus norvegicus with 18 samples.

Results

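The genes described here are 9 genes of the muscle acetylcholine receptor and of the response of muscle to loss of its nerve: Chrna1, Chrnb1, Chrnd, Chrne and Chrng, which encode the alpha1, beta1, delta, epsilon and gamma subunits of the receptor, Musk, Ncam1, Runx1 and Gadd45a. They were chosen by name from 14217 genes that had a probe set with a single gene symbol, and all 9 were on the array, with 13 probe sets between them. Each gene is given by its main probe set, the one with the highest mean over all arrays.

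Affymetrix arrays measured messenger RNA of the soleus, a postural calf muscle, from both hindlimbs of 9 male rats. Of these, 5 had undergone 5/6 nephrectomy (SNX), an operation that removes most kidney tissue and leaves chronic kidney disease, and 4 were sham operated. All 9 rats had the femoral artery of the right limb tied and cut out 8 weeks after that operation, and both soleus muscles were taken 24 hours later. The 4 groups are therefore sham left (n = 4), sham right (n = 4), SNX left (n = 5) and SNX right (n = 5), with 18 arrays in all. The left muscle came from a rat that also had a ligated limb, so there is no muscle from a rat without ligation. In the labels' source field both muscles of sham rats are nonischemic and both muscles of SNX rats ischemic. The design text instead has the right limb ligated in all rats, so operation and side name the groups. The series title concerns blood vessel growth after ischemia in chronic kidney disease. The labels give no measure of innervation, and no limb was denervated as far as they say.

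The muscle acetylcholine receptor is an ion channel of 5 subunits that opens when the motor nerve releases acetylcholine. In adult muscle the epsilon subunit takes the place of the gamma subunit of fetal muscle, and transcription of the receptor is largely kept to the nuclei beneath the nerve ending. When the nerve is cut or silent, fibres switch on Chrna1, Chrnd, Chrng, Musk, Ncam1, Runx1 and Gadd45a along their whole length, in part through myogenic transcription factors that bind E-box sequences (CANNTG) in the receptor gene promoters.

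Chrna1 and Chrnd varied together between rats in the left muscle, and Chrnb1 varied little. Runx1 was higher in the ligated than in the other limb in 9 of 9 rats and Gadd45a in 8 of 9. Whether either gene passed the threshold depended on the fit, as given below. The promoter sequences of these 5 genes are therefore shown. Each is the 250 bases before the gene start in RefSeq (build GRCr8), printed 5′ to 3′ on the gene's own strand, with E-boxes in capitals. The positions are chr3:78877354-78877603 (minus strand) for Chrna1, chr9:95310066-95310315 (plus strand) for Chrnd, chr10:55015108-55015357 (minus strand) for Chrnb1, chr11:45421326-45421575 (minus strand) for Runx1 and chr4:97486800-97487049 (minus strand) for Gadd45a.
Chrna1: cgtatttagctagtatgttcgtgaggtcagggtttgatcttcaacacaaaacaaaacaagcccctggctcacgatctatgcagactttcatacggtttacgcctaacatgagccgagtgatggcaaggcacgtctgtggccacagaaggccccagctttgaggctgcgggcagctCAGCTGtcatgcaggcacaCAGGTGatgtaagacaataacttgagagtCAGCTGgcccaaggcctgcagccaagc
Chrnd: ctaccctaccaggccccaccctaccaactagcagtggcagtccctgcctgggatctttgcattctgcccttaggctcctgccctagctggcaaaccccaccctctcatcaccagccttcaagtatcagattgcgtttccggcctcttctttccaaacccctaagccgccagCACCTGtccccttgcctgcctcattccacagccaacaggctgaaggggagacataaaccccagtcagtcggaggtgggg
Chrnb1: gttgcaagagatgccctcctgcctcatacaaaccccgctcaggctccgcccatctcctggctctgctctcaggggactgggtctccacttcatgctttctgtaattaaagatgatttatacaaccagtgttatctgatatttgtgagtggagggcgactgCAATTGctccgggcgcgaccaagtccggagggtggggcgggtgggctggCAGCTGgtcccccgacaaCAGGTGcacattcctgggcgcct
Runx1: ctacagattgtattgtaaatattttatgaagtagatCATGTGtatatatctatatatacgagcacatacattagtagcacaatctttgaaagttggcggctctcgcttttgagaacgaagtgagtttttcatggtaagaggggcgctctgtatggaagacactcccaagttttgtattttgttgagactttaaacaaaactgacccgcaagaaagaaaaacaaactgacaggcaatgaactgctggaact
Gadd45a: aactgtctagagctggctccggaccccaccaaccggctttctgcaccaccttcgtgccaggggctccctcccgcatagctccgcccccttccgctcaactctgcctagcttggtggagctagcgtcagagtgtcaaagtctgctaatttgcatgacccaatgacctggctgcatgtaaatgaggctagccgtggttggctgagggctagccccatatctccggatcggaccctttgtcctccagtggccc

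RefSeq promoters were matched for 8 of the 9 genes, all but Ncam1. The E-box CANNTG, which reads as the same pattern on both strands, occurred 3 times in the promoters of Chrna1, Chrnb1, Chrng and Musk, once in those of Chrnd, Chrne and Runx1, and not in the printed window of Gadd45a. Of 33465 rat promoters of the same length, 65.5% held at least 1 E-box and 11.5% held at least 3. The form CAGCTG, which is 1 kind of E-box and is counted among them, occurred 2 times in Chrna1 and 1 time each in Chrnb1, Chrne, Chrng and Musk, and 12% of all promoters held at least 1 and 1.04% at least 2. The sequence TGTGGT, a short form of the site that RUNX proteins bind, searched on both strands, occurred in Chrne alone among the 8, and 14.5% of all promoters held it. These are matches of letters and do not show binding.

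Levels are log2 values as deposited by the authors, so that 1 unit is a 2-fold step, and the medians of the arrays lay between 3.23 and 3.38. A pair of right arrays, from sham rat 17 and from SNX rat 49, had the lowest mean correlation with the other arrays, 0.978 and 0.980 against 0.987 to 0.992 for the rest. Macrophage genes were high on these arrays. The mean of 12 macrophage markers was 9.43 in the right muscle of sham rat 17 and 8.81 in that of SNX rat 49, against 5.07 to 7.18 on the other 16 arrays. Slow fibre genes were bright on every array, but their mean ran from 10.77 (SNX right, rat 20) to 14.77 (SNX left, rat 12). The mean of 8 fast fibre genes was 14.63 to 14.98 on all arrays. It lay above the slow fibre mean on every array but the left array of SNX rat 12 (14.69 against 14.77). The fast myosin gene Myh4 had a mean level of 15.34, and the slow Myh7 14.88. The fibre makeup of the samples, named soleus in the labels, was not tested. The 8 NK and T cell markers all had means below the lowest array median, as had Sox10, Mag and Erbb3 of the 8 Schwann cell markers measured. In whole muscle, fewer cells of a type and less RNA per cell cannot be told apart.

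One of the 9 genes, Runx1, was called higher in the right than in the left muscle when sham and SNX rats were averaged. Right minus left over both kinds of rat is the mean of the sham and the SNX change with equal weight, from 1 limma fit over all 18 arrays, and a gene was called at an adjusted p under 0.05 over 31042 probe sets. At this threshold 2.55% of all probe sets were called, 1.55% as higher on the right and 0.999% as lower. With the rat as a block, entered as a random term, which takes in that the limbs of a rat come from 1 animal, 3 of the 9 genes were called, Runx1 and Gadd45a as higher and Chrnb1 as lower, against 9.05% of all probe sets (4.56% higher and 4.48% lower). With the rat as a fixed term, 0 of the 9 were called and 3.51% of all probe sets, and 4 of the 9 had an unadjusted p under 0.05 without the block, as had 18.9% of all probe sets.

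**Figure D1:**
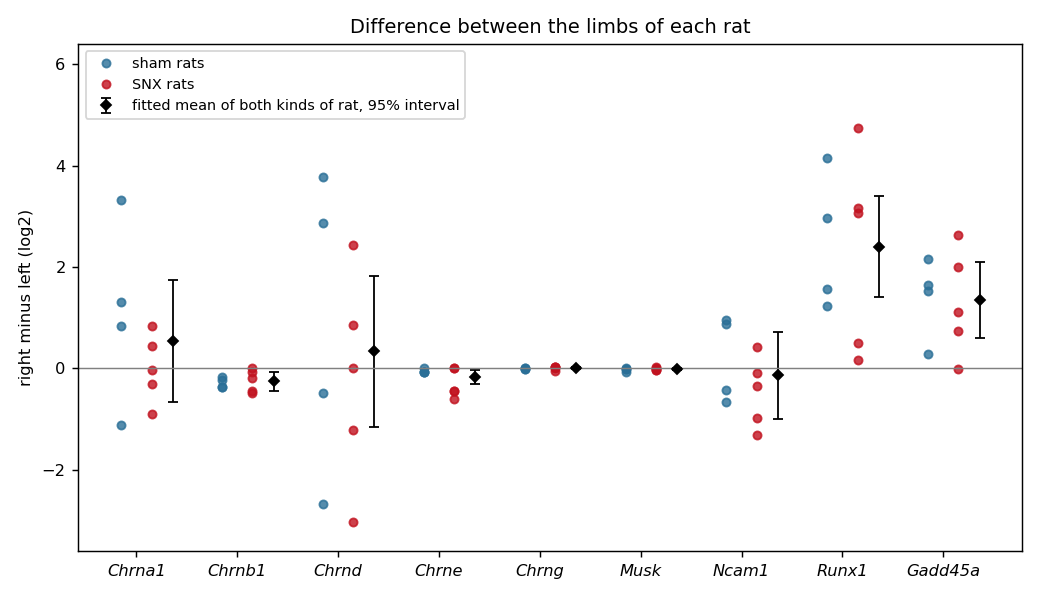
Right minus left log2 difference of each rat for the main probe set of each gene. Circles are single rats (blue, 4 sham; red, 5 SNX), and diamonds with bars are the fitted mean over both kinds of rat with its 95% confidence interval. All 9 rats lie above 0 for Runx1, while Chrna1 and Chrnd spread widely to both sides and Chrng and Musk stay at 0.

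Runx1 encodes a transcription factor known for its part in blood cell formation, which adult muscle makes at low levels until it is denervated. Its level in left sham muscle was 7.21, 8.68, 8.31 and 8.005 in rats 11, 13, 15 and 17, and in the right muscle of the same rats 11.37, 10.24, 9.54 and 10.96. In left SNX muscle it was 8.84, 6.72, 7.69, 7.82 and 7.20 in rats 12, 18, 20, 37 and 49, and in right SNX muscle 9.003, 9.79, 8.20, 10.98 and 11.93. Every right muscle was above the left muscle of the same rat. The sham groups did not overlap, whereas in SNX rats the right muscle of rat 20 lay below the left muscle of rat 12. How many of all probe sets separate the sham groups, or are higher on the right in every rat, is not given here. These traits are therefore not shown to be particular to Runx1. The change ran from 1.22 (rat 15) to 4.16 (rat 11) in sham rats and from 0.16 (rat 12) to 4.74 (rat 49) in SNX rats, so the rats with the smallest and the largest change were both nephrectomised.

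Over both kinds of rat Runx1 was 2.40 ± 0.47 log2 units higher on the right (SE), a 5.28-fold difference, with a limma adjusted p of 0.0179, or 0.00584 with the rat as a block and 0.0542 with the rat as a fixed term. Leaving out 1 rat at a time, the unblocked call was lost without sham rat 11 (adjusted p = 0.0877), sham rat 17 (0.0743) or SNX rat 37 (0.0649), and it held in all 9 such fits with the block. Without the 2 arrays that stood apart the difference was 2.08 unblocked (limma adjusted p = 0.0300) and 2.06 with the block (0.0110). Taken alone, neither kind of rat passed the threshold. The difference was 2.47 ± 0.70 in sham rats (limma adjusted p = 0.162) and 2.33 ± 0.62 in SNX rats (0.300). In sham rats 0 of the 9 genes and 0.148% of all probe sets were called, and in SNX rats 0 of 9 and 0.0451%. With the block these shares of all probe sets were 1.8% and 0.319%, again with 0 of the 9 genes.

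A second Runx1 probe set gave the same picture at a lower brightness. Its group means were 4.47 in left and 6.70 in right sham muscle and 4.05 in left and 6.38 in right SNX muscle, and it was higher on the right in 9 of 9 rats. Over both kinds of rat the difference was 2.28 ± 0.49 (limma adjusted p = 0.0287). The 2 probe sets correlated at r = 0.991 over the 18 arrays, which share the same libraries, so they are not separate evidence of a change.

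Gadd45a encodes a stress-induced protein that takes part in growth arrest and in the changes of muscle nuclei after denervation. Its level was 7.25, 7.05, 7.26 and 8.56 in the left muscle of sham rats 11, 13, 15 and 17, and 9.42, 8.58, 7.54 and 10.20 in the right muscle. In SNX rats 12, 18, 20, 37 and 49 it was 7.92, 7.47, 7.46, 7.11 and 7.34 on the left and 7.92, 8.59, 8.19, 9.11 and 9.97 on the right. The right muscle was higher in 4 of 4 sham rats and 4 of 5 SNX rats, with rat 12 level between its limbs. In sham rats the groups overlapped because the left muscle of rat 17 was high, and in SNX rats they overlapped through rat 12 alone.

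Over both kinds of rat Gadd45a was 1.35 ± 0.35 log2 units higher on the right (2.55-fold). The limma adjusted p was 0.0574 unblocked, 0.0149 with the rat as a block and 0.0515 with the rat as a fixed term. Without the block it was also under the threshold with brighter probe sets only (0.0240), with a trended prior (0.0486) and without sham rat 15 (0.0452), so the call depends on the setting. With the block it was lost without sham rat 11 (limma adjusted p = 0.0612). Without the 2 arrays that stood apart the difference was 0.99 unblocked (limma adjusted p = 0.111) and 1.04 in the blocked fit (0.0345). The change was 1.41 ± 0.53 in sham and 1.29 ± 0.47 in SNX rats, with limma adjusted p of 0.293 and 0.496.

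The changes of Runx1 and Gadd45a varied together from rat to rat. Over the 9 rats the right minus left changes of the 2 genes correlated at Pearson r = 0.902 (exact permutation p = 0.00139, adjusted p = 0.00998). Spearman's rho was 0.933 (exact permutation adjusted p = 0.00771). Without rats 12 and 15, whose Gadd45a changes lay farthest from the median, r was 0.862. Their levels correlated in the right muscle (r = 0.825, exact permutation adjusted p = 0.0304; rho = 0.817) and not detectably in the left (r = 0.153, adjusted p = 0.831). SNX rat 49 had the largest change in both genes and SNX rat 12 the smallest in both. These values belong to 72 relations over 9 rats computed among the genes and 3 marker lists, chosen after the values had been seen and adjusted together, of which 20 had an adjusted Pearson p under 0.05 and 15 also an adjusted Spearman p.

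Markers of several cell types also differed in level between the limbs, macrophage genes most by the median of their list. All 12 markers had a right minus left difference above 0 over both kinds of rat (median 1.46), 1 was called unblocked and 9 with the block, and Itgam was below the lowest array median. For this and the lists below, 40.2% of 14217 genes lay above 0. Of all probe sets 2.55% were called unblocked and 9.05% with the block. The mean of the list was 5.72 to 6.53 in sham left, 6.45 to 9.43 in sham right, 5.07 to 5.65 in SNX left and 5.50 to 8.81 in SNX right. In the right muscle the list mean correlated with Runx1 at r = 0.692 (exact permutation adjusted p = 0.106; rho = 0.600; r = 0.630 without rats 17 and 49). For Gadd45a r was 0.782 (exact permutation adjusted p = 0.0421; rho = 0.667) and fell to 0.248 without rats 17 and 49, so that relation rests on those rats. The change of the list mean correlated with that of Runx1 at r = 0.655 (exact permutation adjusted p = 0.129; rho = 0.517; r = 0.469 without rats 17 and 49). For the change of Gadd45a r was 0.555 (exact permutation adjusted p = 0.220; rho = 0.400; r = 0.191 without these rats). Runx1 was highest in the right muscle of SNX rat 49, at 11.93 with a macrophage mean of 8.81. Next came that of sham rat 11, at 11.37 with a macrophage mean of 6.45. Of 9 fibroblast markers 8 lay above 0 (median 0.50) and 1 was called higher in the unblocked and 1 in the blocked fit. Of 6 endothelium markers 4 lay above 0 (median 0.18), 2 were called higher in each fit, and 1 was called lower with the block. Of 8 Schwann cell markers 7 lay above 0 (median 0.42) and 0 were called, with 1 at an unadjusted limma p under 0.05. In SNX rats 8 lay above 0 (median 0.53), and in sham rats 5 did (median 0.10). The mean of this list was 5.37 to 6.78 in sham left and 5.65 to 6.75 in sham right. It was 4.82 to 5.03 in SNX left and 5.06 to 6.37 in SNX right. For the difference of these changes 0 of the 8 were called, and 0% of all probe sets. Of 5 satellite cell markers 2 lay above 0 over both kinds of rat (median -0.02), 0 were called unblocked and 1 was called higher with the block. The part of these cell types in the Runx1 and Gadd45a results was not tested.

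**Figure D2:**
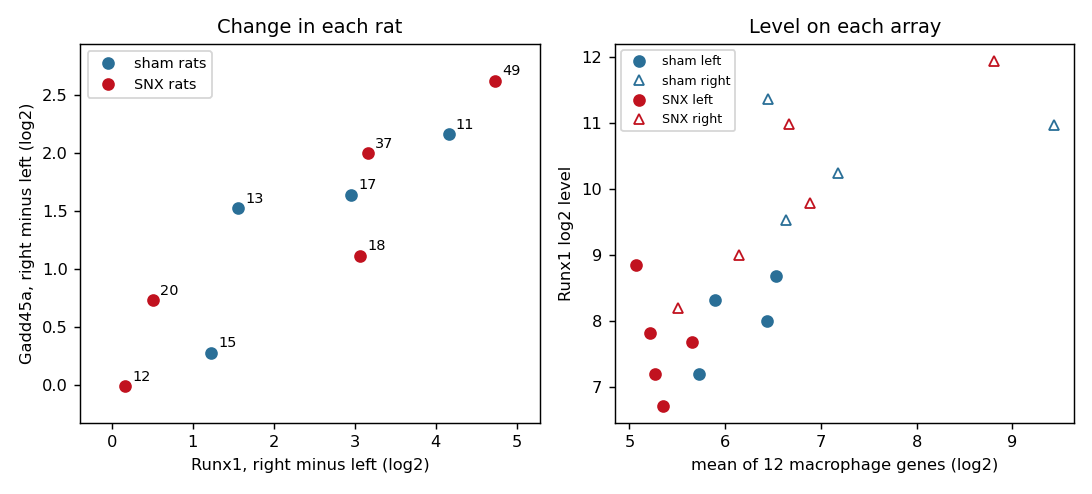
Left, right minus left change of Gadd45a against that of Runx1 (log2), 1 point per rat with its number (blue, sham; red, SNX). Right, the Runx1 log2 level against the mean log2 level of 12 macrophage genes on each of 18 arrays (filled circles, left; open triangles, right). The rats line up from rat 12 to rat 49 in the left plot, and in the right plot the right muscles of rats 17 and 49 lie apart at a macrophage mean of 9.43 and 8.81.

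Of the receptor subunits, Chrna1 and Chrnd had right minus left changes that differed in sign from rat to rat. Chrna1 encodes the subunit that binds acetylcholine. Its level was 5.32, 7.59, 7.42 and 4.53 in the left muscle of sham rats 11, 13, 15 and 17, and 8.63, 8.42, 6.29 and 5.84 in the right. In SNX rats 12, 18, 20, 37 and 49 it was 8.13, 6.00, 5.22, 6.02 and 5.70 on the left and 7.23, 6.44, 4.91, 5.99 and 6.53 on the right. The right muscle was higher in 3 of 4 sham and 2 of 5 SNX rats, and the groups overlapped in both. The difference over both kinds of rat was 0.54 ± 0.56 (limma adjusted p = 0.587), with a 95% interval from -0.65 to 1.74 that holds a 2-fold rise and leaves out a 2-fold fall.

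Chrnd encodes the delta subunit. Its level was 5.29, 7.75, 7.50 and 4.44 in the left muscle of sham rats 11, 13, 15 and 17, and 8.16, 7.26, 4.82 and 8.22 in the right. In SNX rats 12, 18, 20, 37 and 49 it was 8.45, 6.10, 5.16, 7.16 and 5.12 on the left and 5.43, 6.96, 3.94, 7.16 and 7.55 on the right. Single rats moved far in opposite directions, by 3.78 in sham rat 17 and by -3.03 in SNX rat 12. The difference over both kinds of rat was 0.34 ± 0.70 (limma adjusted p = 0.789; 95% interval -1.15 to 1.83), and it was -0.01 without the 2 arrays that stood apart.

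Chrnb1, the beta1 subunit, varied little. Its 18 levels lay between 6.97 and 7.84, a range of 0.86, against 3.94 to 8.45 for Chrnd. In the left muscle it was 7.34, 7.38, 7.68 and 7.48 in sham rats 11, 13, 15 and 17 and 7.52, 7.42, 7.84, 7.67 and 7.53 in SNX rats 12, 18, 20, 37 and 49. In the right muscle it was 6.97, 7.01, 7.52 and 7.26 in the sham rats and 7.45, 7.44, 7.40, 7.48 and 7.05 in the SNX rats. It was lower on the right in 4 of 4 sham and 4 of 5 SNX rats, with SNX rat 18 level, and the groups overlapped in both. Over both kinds of rat the difference was -0.26 ± 0.09, and the limma adjusted p was 0.122 unblocked, 0.0339 with the rat as a block and 0.0544 with the rat as a fixed term. The blocked call held in 2 of the 9 fits that left out a rat (SNX rat 12 and sham rat 15) and was lost in the fit without the 2 arrays that stood apart (adjusted p = 0.0638). A second, dim probe set of Chrnb1 with a mean of 2.33 gave a difference of -0.01 ± 0.02.

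The adult epsilon subunit Chrne and the fetal gamma subunit Chrng were dim, with means over 18 arrays of 2.03 and 1.95, below the lowest array median of 3.23. At such levels the array gives little information on a change. Chrng stayed between 1.92 and 1.98 on all 18 arrays, and its difference over both kinds of rat was 0.00 ± 0.01. Chrne ran from 1.79 to 2.57, and its highest values, 2.57 in rat 18 and 2.35 in rat 20, were in left SNX muscle. Its difference over both kinds of rat was -0.17 ± 0.07 (limma adjusted p = 0.172). In SNX minus sham of the left muscle Chrne was the 1 gene of the 9 with an unadjusted limma p under 0.05, with a difference of 0.22 ± 0.09 and an adjusted p of 0.745, and 6.25% of all probe sets had such a p.

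Musk, the kinase at the nerve ending through which agrin gathers receptors, was also dim, with a mean of 2.15 and 18 levels between 2.12 and 2.19. Its difference over both kinds of rat was -0.01 ± 0.01 (limma adjusted p = 0.619). Ncam1 encodes a cell adhesion molecule that covers the fibre after denervation and is also made by satellite cells and nerve. Its level was 5.91, 7.93, 6.81 and 5.67 in the left and 6.78, 7.51, 6.15 and 6.63 in the right muscle of sham rats 11, 13, 15 and 17. In SNX rats 12, 18, 20, 37 and 49 it was 8.08, 6.26, 5.63, 7.05 and 6.23 on the left and 6.77, 6.17, 4.66, 6.71 and 6.65 on the right. It was higher on the right in 2 of 4 sham and 1 of 5 SNX rats, the groups overlapped, and the difference over both kinds of rat was -0.13 ± 0.40 (limma adjusted p = 0.859; 95% interval -0.99 to 0.72). The other 2 Ncam1 probe sets had means of 3.41 and 2.63, and neither was called.

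**Figure D3:**
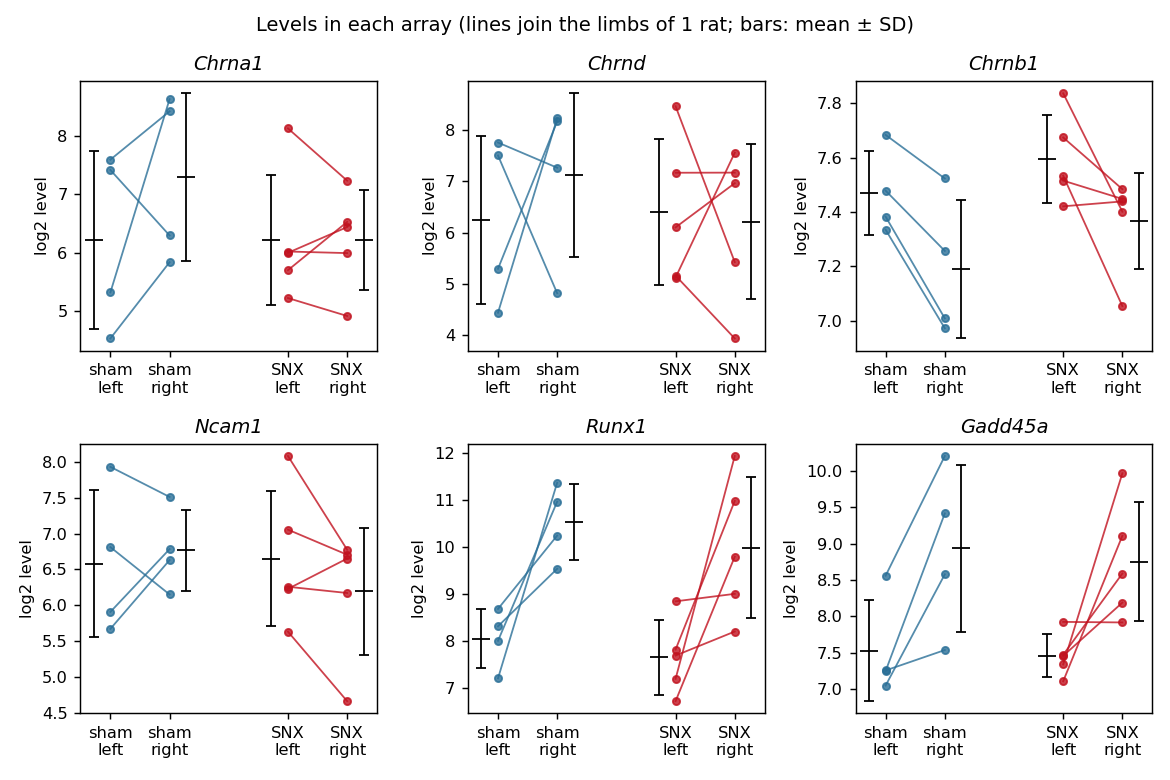
Log2 level of 6 genes on each array, with a line joining the limbs of 1 rat (blue, sham; red, SNX) and bars for the group mean ± SD (n = 4 sham and 5 SNX rats). The vertical axes differ between panels and do not start at 0. Lines of Runx1 and Gadd45a run upward from left to right muscle in nearly all rats, those of Chrnb1 downward over a small range, and those of Chrna1, Chrnd and Ncam1 cross.

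Chrna1, Chrnd and Ncam1 followed the level of slow fibre genes. The slow fibre list holds 8 contractile genes (Myh7, Myl2, Myl3, Tnnt1, Tnni1, Tnnc1, Tpm3 and Atp2a2). In the left muscle of the 9 rats its mean correlated with Chrna1 at r = 0.948 (exact permutation adjusted p = 0.000595; rho = 0.983; r = 0.927 without the 2 rats farthest out), with Chrnd at r = 0.956 (0.000661; 0.900; 0.957) and with Ncam1 at r = 0.916 (0.00182; 0.950; 0.949). The lowest left muscle was that of sham rat 17, with a slow fibre mean of 11.82 and levels of 4.53 for Chrna1 and 4.44 for Chrnd. The highest was that of SNX rat 12, with 14.77, 8.13 and 8.45. These relations pool 4 sham and 5 SNX rats, and neither kind has enough rats for a correlation of its own. They and those of the next paragraphs belong to the 72 relations chosen after the values had been seen. The adjusted p does not cover that choice, so they are descriptions. How many of all genes follow the slow fibre mean as closely is not given here.

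In the right muscle r with the slow fibre mean was 0.774 for Chrna1 (exact permutation adjusted p = 0.0224), 0.679 for Chrnd (0.0936) and 0.902 for Ncam1 (0.0322). Spearman's coefficient was 0.783, 0.367 and 0.817, with adjusted p of 0.062, 0.538 and 0.0485. The right muscle of sham rat 17 had a Chrnd level of 8.22 at a slow fibre mean of 13.11, well above the line of the other arrays. The right minus left changes followed those of the slow fibre mean at r = 0.767 for Chrna1 (exact permutation adjusted p = 0.0512), 0.830 for Chrnd (0.0288) and 0.890 for Ncam1 (0.00998), with rho of 0.817, 0.917 and 0.950. For Runx1 the change correlated with that of the slow fibre mean at r = 0.827 (exact permutation adjusted p = 0.0288; rho = 0.783, adjusted p = 0.062). Chrnb1 showed no such relation that 9 rats could detect, with r = 0.036 in the left muscle and 0.082 for the changes. The part of slow fibre content in these levels was not tested.

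**Figure D4:**
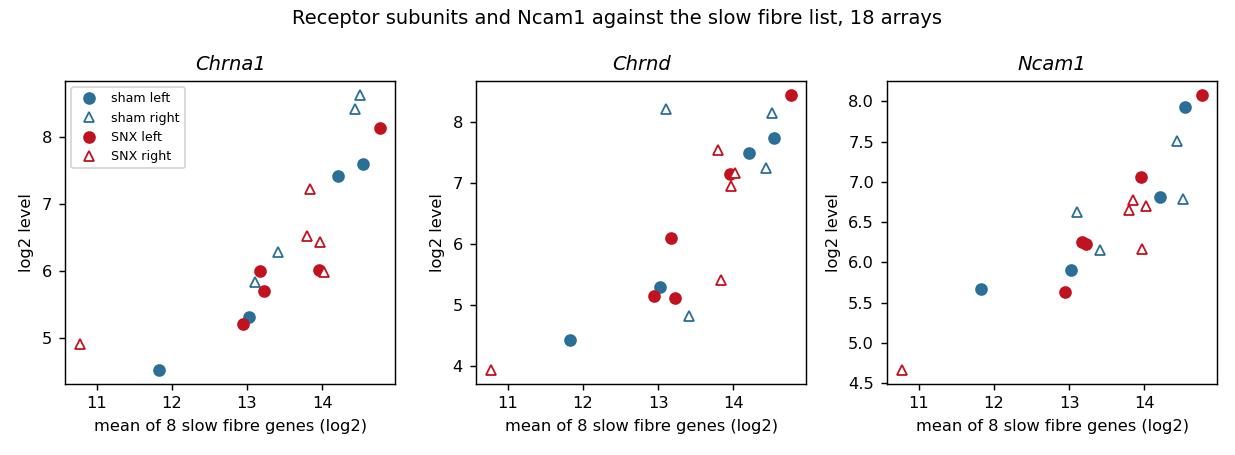
Log2 levels of Chrna1, Chrnd and Ncam1 against the mean log2 level of 8 slow fibre genes on 18 arrays (filled circles, left; open triangles, right; blue, sham; red, SNX). Points rise from the right muscle of SNX rat 20, at a slow fibre mean of 10.77, to the left muscle of SNX rat 12, at 14.77, and in the Chrnd panel the right muscle of sham rat 17 lies above the others near 13.11.

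Chrna1, Chrnd and Ncam1 varied together in the left muscle and in their changes, while in the right muscle no pair of them passed an adjusted p of 0.05. Chrna1 and Chrnd correlated at r = 0.951 in the left muscle (exact permutation adjusted p = 0.000661; rho = 0.950) and at r = 0.472 in the right (adjusted p = 0.331). In the right muscle r was 0.752 for Chrna1 and Ncam1 (exact permutation adjusted p = 0.0512) and 0.703 for Chrnd and Ncam1 (0.0744). Their changes correlated at r = 0.826 (exact permutation adjusted p = 0.0202; rho = 0.867). The changes of Chrnd and Ncam1 correlated at r = 0.960 (exact permutation adjusted p = 0.00182; rho = 0.983; r = 0.923 without the 2 rats farthest out). Chrnd and Runx1 correlated in the right muscle at r = 0.884 (exact permutation adjusted p = 0.00998; rho = 0.833), and Chrna1 and Runx1 there at r = 0.354 (adjusted p = 0.535). In the left muscle r with Runx1 was 0.670 for Chrnd and 0.669 for Chrna1 (exact permutation adjusted p = 0.129 for each). For the changes r with Runx1 was 0.843 for Chrnd (exact permutation adjusted p = 0.0288; rho = 0.783) and 0.70 for Chrna1 (0.0853; rho = 0.633). The Schwann cell list, genes of the cells that wrap the nerve, did not pass an adjusted p of 0.05 with the level of any of these genes in either limb. Its change correlated with that of Chrna1 at r = -0.808 (exact permutation adjusted p = 0.0322; rho = -0.617, adjusted p = 0.237), and r was -0.518 without rats 11 and 13.

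Whether the response to ligation differed with kidney state was tested as the SNX change minus the sham change. For this difference 0 of the 9 genes and 0% of all probe sets were called with limma, with or without the block, and 0 of the 9 and 1.41% of all probe sets had an unadjusted p under 0.05 without it. The difference was -0.15 ± 0.94 for Runx1 (95% interval -2.14 to 1.85), -0.11 ± 0.71 for Gadd45a (-1.62 to 1.40), -1.07 ± 1.13 for Chrna1 (-3.47 to 1.32) and -1.06 ± 1.40 for Chrnd (-4.04 to 1.92). It was 0.05 ± 0.17 for Chrnb1 (-0.32 to 0.42). For Chrnb1 the interval leaves out a 2-fold difference in either direction, and for the other 4 it does not.

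The 9 genes also did not differ detectably between SNX and sham rats within a limb. In the left muscle 0 of the 9 genes and 0.00644% of all probe sets were called, and in the right muscle 0 of 9 and 0%, with 0 of the 9 and 9.25% of all probe sets below an unadjusted p of 0.05 on the right. SNX minus sham for Runx1 was -0.40 ± 0.66 on the left and -0.54 ± 0.66 on the right, and for Gadd45a -0.07 ± 0.50 and -0.18 ± 0.50. For Chrna1 it was -0.0011 ± 0.80 on the left and -1.08 ± 0.80 on the right (limma adjusted p = 0.520), where the sham mean was 7.30 ± 1.44 (SD, n = 4) and the SNX mean 6.22 ± 0.86 (SD, n = 5). Cell type markers ran lower in left SNX muscle, though 0 were called. There 0 of 12 macrophage markers lay above 0 (median -0.91), and 0 of 9 fibroblast markers (median -0.82), against 59.0% of 14217 genes. An unadjusted limma p under 0.05 was found for 3 of these macrophage and 6 of these fibroblast markers.

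Of 24 measured genes of a neuromuscular junction list, 0 were called over both kinds of rat without the block, 8 were dim and 8 lay above 0 (median -0.04, against -0.01 over 14217 genes). With the block Lama4, a laminin chain of muscle, vessel and synaptic basement membrane, was called higher (0.56 ± 0.14, limma adjusted p = 0.0236), and Dtna, a dystrobrevin of the dystrophin complex, lower (-0.28 ± 0.08, adjusted p = 0.0354). The steps of the agrin pathway gave -0.20 ± 0.14 for Agrn, -0.17 ± 0.12 for its receptor Lrp4, -0.16 ± 0.10 for the Musk activator Dok7 and -0.09 ± 0.14 for Rapsn, which anchors the receptor, none of them called. The 11 nicotinic subunits of nerve and other tissues, Chrna9 among them, were all dim, and 0 of 11 were called.

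Of 20 measured genes of a denervation response list, 1 was called, and it was lower on the right. This was Mef2c, a transcription factor of muscle differentiation (-0.24 ± 0.06, limma adjusted p = 0.0381). Of the 20, 14 lay above 0 with a median of 0.19, against 40.2% of 14217 genes and a median of -0.01. Myog, the myogenic factor that drives receptor genes after denervation, had a difference of 0.43 ± 0.42 (limma adjusted p = 0.559), and Hdac4, the deacetylase that links loss of nerve activity to Myog, one of 0.22 ± 0.16 (0.449). With the block 1 of the 20 was called over both kinds of rat and 1 in sham rats, each lower on the right. The shares of all probe sets were 9.05% and 1.8%. Of 7 measured partners and relatives of Runx1 none was called, and its binding partner Cbfb had a difference of -0.10 ± 0.15 (limma adjusted p = 0.712).

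The list of Gadd45 relatives and partners held 4 called genes of 11, all higher on the right, with a median of 0.06 over the list. They were Ddit3, a transcription factor of the stress response (1.55 ± 0.24, limma adjusted p = 0.00582), its upstream factor Atf4 (0.22 ± 0.04, 0.0219), Gadd45b (1.32 ± 0.29, 0.0295) and Pcna, the DNA polymerase clamp that Gadd45 proteins bind (0.56 ± 0.14, 0.0440). With the block Gadd45b was 1.96 ± 0.38 higher on the right in sham rats (limma adjusted p = 0.0216) and 0.69 ± 0.34 in SNX rats (0.426). The difference of these changes was -1.27 ± 0.51 with the block (limma adjusted p = 0.976). Ddit3 was called with the block in each kind of rat (limma adjusted p = 0.0127 in sham and 0.0374 in SNX). With the block 3 of the 11 were called in sham rats and 1 in SNX rats, all higher on the right. The shares of all probe sets were 1.8% and 0.319%. Gadd45g, the remaining gene of the family, had a difference of 0.58 ± 0.37 (limma adjusted p = 0.393). Over both kinds of rat 341 of 14217 genes were called higher and 170 lower. The lists were drawn up with earlier results of these arrays known, and their counts are descriptions.

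**Figure D5:**
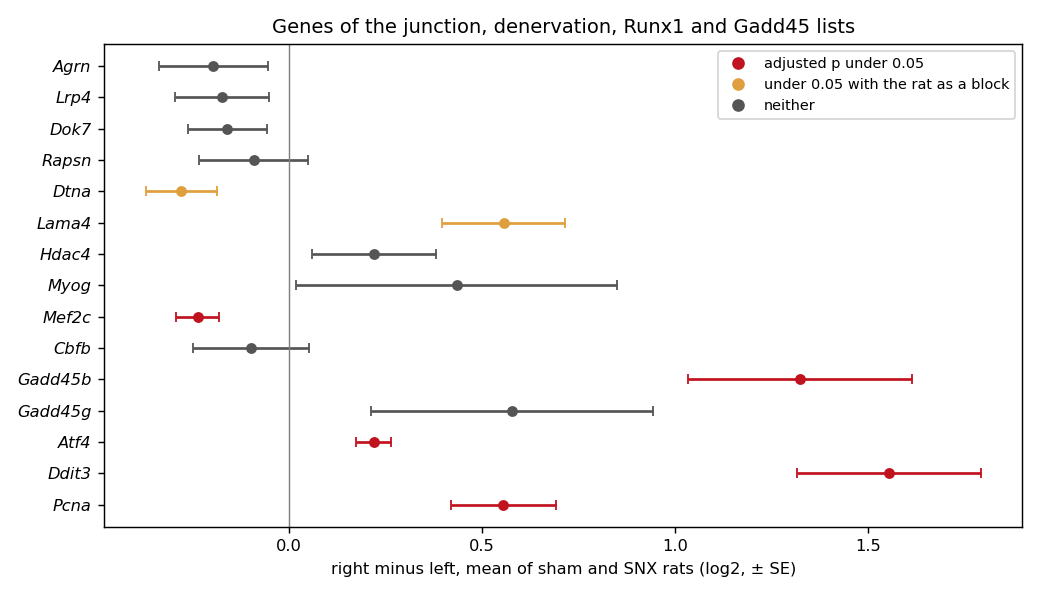
Right minus left log2 difference, the mean of sham and SNX rats, with its SE for 15 genes of the junction, denervation, Runx1 and Gadd45 lists. Red marks an adjusted p under 0.05, orange one under 0.05 with the rat as a block, and grey neither. Ddit3 and Gadd45b lie furthest to the right, at 1.55 and 1.32, and the agrin pathway genes Agrn, Lrp4, Dok7 and Rapsn between -0.20 and -0.09.

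The genes most alike in pattern were taken as the 3 with the highest Pearson r over the 18 arrays, which share groups and rats. For Runx1 these were Rrp12, a ribosome assembly factor (r = 0.975), Klhl40, a kelch protein of the sarcomere (0.974), and the cytokine-activated transcription factor Stat3 (0.969). For Gadd45a they were Tmed9 (0.925), Tgif1 (0.924) and Atp6v1h (0.916). Chrna1 was most like Cda (0.957), Slc38a1 (0.910) and Slc2a13 (0.907), and Chrnd like Aig1 (0.922), Abi1 (0.887) and Tmbim1 (0.880).

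Ncam1 was most like Xpo4 (r = 0.928), the slow fibre troponin Tnni1 (0.901) and Ankrd17 (0.897). For Chrnb1 the closest were Wdtc1 (0.853), Helz (0.827) and Grtp1 (0.809), the lowest such values of the 9 genes. Of the dim genes, Chrng most closely followed Zfpm1 (0.901), Map6d1 and Slc16a8, Musk Prss42 (0.934), Epm2a and Shtn1, and Chrne Hoxa7 (0.895), Pole and Vax2. For Chrne the Spearman rho with Pole was 0.340 against an r of 0.890, so that likeness rests on a few arrays.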

How the data were processed

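Soleus RNA of 9 rats was hybridised as biotin-labelled cRNA to 18 Affymetrix arrays, per the labels' protocols. Groups, sides and rat numbers came from the sample titles. The table deposited by the authors holds normalized log2 values of 31099 probe sets. The submitters' processing notes list RMA, GCRMA and Partek, with versions and roles not given in the sources used here. They differ in background correction, which affects dim probe sets most. The array medians lay between 3.23 and 3.38, and the number of arrays limits the precision.

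After 57 control probe sets were left out, 31042 were tested. Of these, 20826 list 1 gene symbol in the platform annotation and could be named, 436 list several and 9780 list none. A probe set is called dim where its mean over the arrays lies below the lowest array median.

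Group means were fitted to the 18 arrays in limma (version 3.58.1, R 4.3.3) with moderated variances. Two-sided p-values were adjusted over all tested probe sets (Benjamini-Hochberg), with a threshold of 0.05. Same-numbered arrays are the limbs of 1 rat, per the labels. A fit with a random effect of the rat (duplicateCorrelation, estimated at 0.297), called the block, therefore stands beside the calls of the 9 genes that it changes. Deviations from the group means correlated at over 0.1 between the limbs in 7 of 9 rats. Alternatives were the rat as a fixed term, only the groups compared, quantile normalization, median centring, brighter probe sets only, a trended prior, leaving out each rat, and leaving out the right arrays of sham rat 17 and SNX rat 49. Correlations over rats used exact permutation tests (362880 pairings, scipy 1.17.1). The fits were tested on simulated data.

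The genes described, the lists and the tests were chosen with earlier results of these data known. Beside the 9 genes, the text names every gene of the 5 lists other than cell type markers that was called with or without the block, a few fixed list genes, and the 3 genes most alike to each. Ache and Dach2, also on the fixed list, were not analysed here.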

Additional observations from a re-analysis of the deposited data

Results flagged for a closer look

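In 7 of 52 sets of values (1 probe set in 1 group) the highest or lowest rat stood far from the others of its group by Dixon's test, which chance alone gives in about 1 in 20. Chrna1 was 8.13 in the left muscle of SNX rat 12, against 5.22 to 6.02 in the other SNX rats. That rat also had the highest left level of Chrnd, Ncam1 and the slow fibre genes among the SNX rats. Chrnb1 was 7.05 in the right muscle of SNX rat 49, against 7.40 to 7.48. Ncam1 was 4.66 in the right muscle of SNX rat 20, against 6.17 to 6.77, on the array with the lowest slow fibre mean. Gadd45a was 8.56 in the left muscle of sham rat 17, against 7.05 to 7.26, so that its right minus left change in that rat starts from a high left level.

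The other 3 values came from secondary probe sets of low brightness. A second Chrnb1 probe set read 2.42 in the left muscle of sham rat 11, against 2.30 to 2.31. A second Ncam1 probe set read 4.28 in the left muscle of sham rat 13, against 3.27 to 3.35, and 3.58 in the left muscle of SNX rat 37, against 3.27 to 3.36.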

How the results depend on the processing

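Over all alternatives and the 6 comparisons, values of the 9 genes kept their direction and side of the threshold in 1295 cases, passed it in 18, lost it in 4, and in 111 cases an uncalled value changed sign. Of the 9 genes, 1 was called over both kinds of rat, and the count was 3 with the rat as a replicate block, 0 with the rat as a fixed block, 2 with brighter probe sets only, 2 with a trended prior and 2 with the block without the right arrays of sham rat 17 and SNX rat 49. Leaving out 1 rat gave 0 to 2 genes over both kinds of rat unblocked and 1 to 4 with the block. In sham rats it gave 0 unblocked and 0 to 1 with the block. In the other 4 comparisons it gave 0 with either fit. The fits without 1 rat with the block, and those with the block without the 2 arrays, were added after the data had been seen.

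Counts of all probe sets moved more. Over both kinds of rat 791 were called, and 2808 with the block, 1796 with brighter probe sets and 1901 with the block without the 2 arrays. Without 1 rat the count was 153 to 1007 unblocked and 1163 to 3305 with the block. In sham rats 46 became 559 with the block, 117 with the fixed block, 11 with only the groups compared and 145 with brighter probe sets. It became 183 without the 2 arrays and 972 with the block without them. Without 1 rat the sham count was 0 to 284 unblocked and 72 to 1567 with the block. In SNX rats 14 became 99, 6, 0 and 33 under the first 4 of these settings and 94 with the block without the 2 arrays. Without 1 rat the SNX count was 0 to 8 unblocked and 2 to 147 with the block. The difference of the responses went from 0 to 1 without the 2 arrays and 3 with the block without them. Without 1 rat it was 0 unblocked and 0 to 2 with the block. SNX minus sham on the left went from 2 to 0 with only the groups compared, quantile normalization or median centring. With or without the block, it was 8 without the 2 arrays and 0 to 12 without 1 rat. On the right it went from 0 to 2 with brighter probe sets, 1 with a trended prior, 2 without the 2 arrays and 3 with the block without them. Without 1 rat it was 0 to 10, with or without the block. Beside the counts of 0, 437 probe sets for the difference and 2872 on the right had an unadjusted limma p under 0.05. The causes were not tested. Chrne, Chrng and Musk lie near the low end of the arrays' range, where a change can be hidden.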
